A study of Homo sapiens with 4 samples.

Results

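The Hi-C matrices of chromosome 17 held 2 islands of measured sequence on either side of the stretch without values that holds YWHAE, the gene of the 14-3-3 epsilon protein, and contacts inside and between these islands are described here. The islands were chosen by position and not by their values, though with earlier results of these data known. The BHLHA9 island covers chr17:1190501-1300500 and the CRK to PITPNA island chr17:1445501-1573500 on hg38. Together they make up 220 of the 2000 bins of each matrix, which follow each other in steps of 1 kb. The bins overlap because each covers 10 kb, so values were taken from non-overlapping 10-kb windows. The BHLHA9 island has 10 such windows and the CRK to PITPNA island has 12, of 148 windows with values in all libraries.

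The libraries came from H9, an established line of human embryonic stem cells (ESC, 2 libraries, untreated), and from neuroectodermal cells that had been differentiated from the same line (ECTO, 2 libraries). All 4 libraries are labelled as wild type, and all come from this 1 line. The labels do not say whether replicates 1 and 2 were separate cultures, so differences between them may be technical. In the matrix headers, ESC and ECTO of like replicate number carry the same directory name, so the cell type of each matrix is known from the labels alone. The study made these libraries to find the sites that the enhancer HAR123 contacts. The islands lie outside that question, and no comparison of them is named in the labels.

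Hi-C joins pieces of DNA that lie close together in the cross-linked nucleus and counts each joined pair by sequencing. Contact falls steeply with distance along the chromosome, so a contact is read against the mean of all pairs at the same distance. Contacts above that mean can come from loops, from shared domains or from regions of like chromatin that gather in the nucleus, and these are not distinguished by a count of contacts alone. The genes of the islands are not known as a single pathway. BHLHA9 encodes a basic helix-loop-helix transcription factor of limb development, and TRARG1 a protein that acts in the trafficking of the glucose transporter GLUT4. CRK encodes an adaptor protein of tyrosine kinase signalling, MYO1C a class I myosin that links membranes to actin, INPP5K a phosphatase of phosphoinositides and PITPNA a phosphatidylinositol transfer protein. ABR has its start in the BHLHA9 island and runs on into the stretch without values below it.

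The positions of these genes were taken from GENCODE 44. BHLHA9 (ENSG00000205899.4) lies at chr17:1270444-1271815 on the plus strand, and TRARG1 (ENSG00000184811.4) lies at chr17:1279662-1300978 on the plus strand. The other 4 genes lie on the minus strand, CRK (ENSG00000167193.8) at chr17:1420689-1463162, MYO1C (ENSG00000197879.17) at chr17:1464186-1492686, INPP5K (ENSG00000132376.20) at chr17:1494577-1516742 and PITPNA (ENSG00000174238.16) at chr17:1517718-1562792. The first base of each of the 6 genes lies in a window of its own, and a window is called by that gene below. YWHAE lies at chr17:1344275-1400222, in bins that are listed at 0 in all libraries, and was not analysed here.

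The promoters of 2 of these genes are shown because their windows stood at or near the top of their island in contact with the other island, as given below. Both sequences are those of RefSeq for GRCh38.p14, run from 250 bases before to 50 bases after the annotated start on the gene's own strand, and equal hg38 base for base. The capitals mark GC boxes, GGGCGG on either strand.
BHLHA9 (chr17:1270194-1270493, plus strand): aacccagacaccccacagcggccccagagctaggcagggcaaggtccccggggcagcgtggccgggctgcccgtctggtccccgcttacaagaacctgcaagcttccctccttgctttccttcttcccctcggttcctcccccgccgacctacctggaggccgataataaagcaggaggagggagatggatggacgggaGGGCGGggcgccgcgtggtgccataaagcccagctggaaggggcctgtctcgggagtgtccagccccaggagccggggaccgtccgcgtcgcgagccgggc
INPP5K (chr17:1516563-1516862, minus strand): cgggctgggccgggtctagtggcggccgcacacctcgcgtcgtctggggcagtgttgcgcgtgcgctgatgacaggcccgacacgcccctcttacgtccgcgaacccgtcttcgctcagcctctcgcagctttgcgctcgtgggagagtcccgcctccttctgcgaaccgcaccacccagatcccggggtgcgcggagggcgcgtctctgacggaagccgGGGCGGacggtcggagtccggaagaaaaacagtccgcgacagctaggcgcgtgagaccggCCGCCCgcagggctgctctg
The BHLHA9 promoter held 1 GC box and 23 CpG dinucleotides at 68.7% G and C, and the INPP5K promoter held 2 GC boxes and 41 CpG dinucleotides at 70.3%. A GC box was present in 45.0% of the 35116 promoters of the RefSeq table, and the median promoter held 14 CpG dinucleotides. TATAAA was found in neither sequence on either strand, and in 11.5% of all promoters. The matches describe letters and not binding.

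Over the 148 windows the libraries held 57025 (ESC replicate 1), 57554 (ESC replicate 2), 35199 (ECTO replicate 1) and 35484 (ECTO replicate 2) read pairs. Window pairs at least 20 kb apart and inside or between the islands held 1693, 1719, 908 and 897 of them, in the same order. Over island pairs with at least 5 read pairs, the replicates of a cell type differed by no more than the counting error (chi-square per degree of freedom 0.976 over 182 pairs in ESC, p = 0.578, and 1.04 over 146 pairs in ECTO, p = 0.364). All intervals given here are 95% intervals computed from counts of read pairs. They cover counting error only and no spread between libraries. The reads carry no molecular identifiers. Both islands are short and stand between stretches without values, so their windows had 10 to 12 measured windows within 100 kb, against a median of 20 for the windows outside the islands.

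The islands contacted each other at about 2 times the same-distance mean in all 4 libraries. The 120 window pairs with 1 window in each island lie 170 to 370 kb apart, and all of them span the stretch that holds YWHAE. They held 499 read pairs in ESC replicate 1, 501 in ESC replicate 2, 322 in ECTO replicate 1 and 295 in ECTO replicate 2. The summed values were 2.01 times the sum of the same-distance means in ESC replicate 1 (interval 1.84 to 2.19) and 2.01 times in ESC replicate 2 (1.84 to 2.19). They were 2.24 times in ECTO replicate 1 (2.00 to 2.49) and 1.94 times in ECTO replicate 2 (1.73 to 2.18). No interval reached 1, and the 2 cell types overlapped.

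The excess was spread over the block rather than held by a few pairs. The median of the 120 ratios was 1.87 ± 0.01 in ESC and 1.89 ± 0.01 in ECTO (SD, n = 2 libraries). Over all 2333 window pairs at these distances, the 120 included, the medians were 0.84 ± 0.02 and 0.79 ± 0.008. Of the 120 pairs, 50 (41.7%) were above the same-distance mean in all 4 libraries, against 231 of the 2333 (9.90%). The ratio depended on the expectation and was above 1 under each one tried. With island pairs left out of the expectation it was 2.16 in ESC and 2.26 in ECTO. Against an expectation from distance alone it was 1.44 ± 0.01 in ESC and 1.74 ± 0.14 in ECTO, and where distance and window totals were fitted together it was 1.58 ± 0.005 in ESC and 1.74 ± 0.09 in ECTO.

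**Figure D1:**
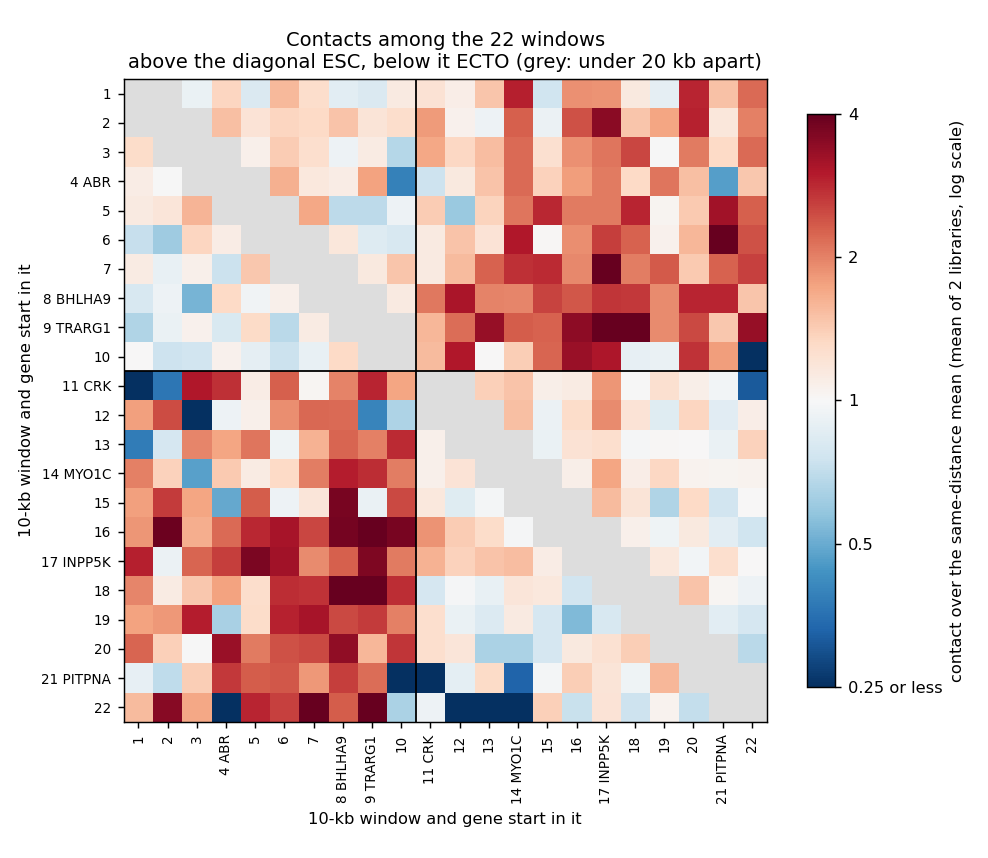
Contact over the same-distance mean for each pair of the 22 island windows, on a log colour scale, as the mean of 2 libraries, with ESC above and ECTO below the diagonal. Windows 1 to 10 are the BHLHA9 island and 11 to 22 the CRK to PITPNA island. The 120 pairs between the islands (median 1.87 in ESC and 1.89 in ECTO) are mostly above the mean, and pairs inside each island lie closer to it.

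Inside the islands contact was near the same-distance mean, and its side of the mean depended on the expectation. The 36 pairs inside the BHLHA9 island held 446 and 468 read pairs in ESC and 247 and 240 in ECTO. Their ratio was 1.14 (1.04 to 1.25) and 1.21 (1.10 to 1.33) in ESC replicates 1 and 2, and 1.09 (0.95 to 1.23) and 1.02 (0.90 to 1.16) in ECTO replicates 1 and 2. The 55 pairs inside the CRK to PITPNA island held 748 and 750 read pairs in ESC and 339 and 362 in ECTO. Their ratio was 1.13 (1.05 to 1.22) and 1.12 (1.05 to 1.21) in ESC, and 1.02 (0.92 to 1.14) and 1.07 (0.96 to 1.19) in ECTO. Both ESC libraries were thus slightly above the mean in both islands, and the ECTO intervals included 1.

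Against an expectation from distance alone the same read pairs fell below it, at 0.75 ± 0.02 in ESC and 0.85 ± 0.03 in ECTO inside the BHLHA9 island. Inside the CRK to PITPNA island they were at 0.88 ± 0.001 and 0.87 ± 0.02. With distance and window totals fitted together the BHLHA9 island stood at 0.82 ± 0.01 in ESC and 0.77 ± 0.005 in ECTO, and the CRK to PITPNA island at 0.98 ± 0.007 and 0.97 ± 0.03. The matrices are balanced to 1 total per bin, and the islands had fewer measured neighbours than other windows, as given above. The part of this in the ratios inside the islands was not tested.

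**Figure D2:**
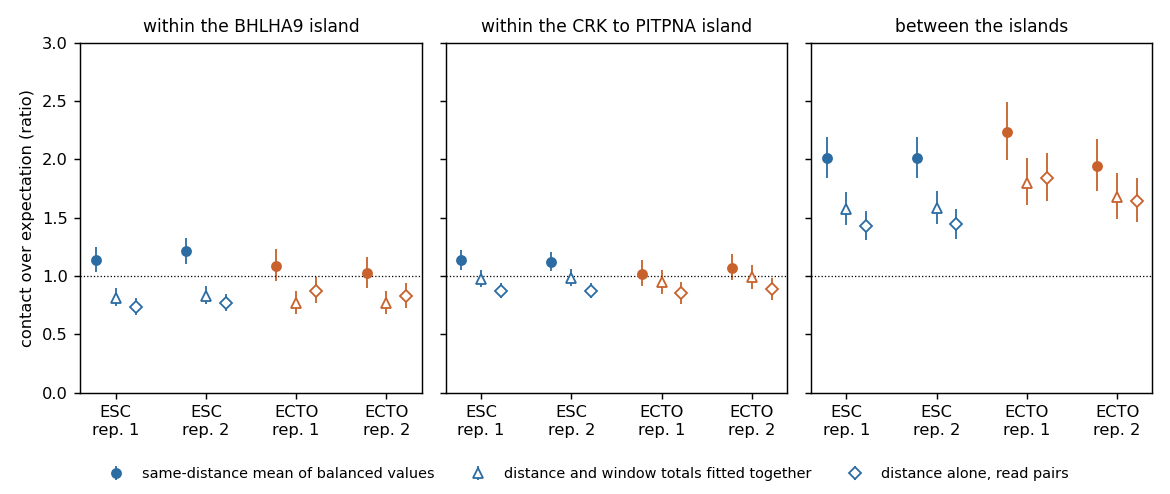
Contact over expectation (ratio, linear axis from 0) in each library for pairs inside the BHLHA9 island, inside the CRK to PITPNA island and between them. Filled circles use the same-distance mean of the balanced values, triangles an expectation with distance and window totals fitted together, and diamonds distance alone, with 95% counting intervals. Pairs between the islands lie above 1 under all 3 expectations, and pairs inside the islands change side.

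ECTO and ESC were then compared block by block, with read pairs summed per cell type. Between the islands ECTO differed from ESC by 0.05 on the log2 scale (interval -0.10 to 0.20), a difference that the counting error does not resolve. Against distance alone the difference was 0.28 (0.13 to 0.42), higher in ECTO. With distance and totals fitted together it was 0.14 (-0.006 to 0.29). Inside the BHLHA9 island ECTO was lower by a log2 change of -0.17 (-0.33 to -0.006), and inside the CRK to PITPNA island by -0.15 (-0.28 to -0.02). The first of these turned to 0.17 (0.01 to 0.33) against distance alone, and the second became -0.0094 (-0.14 to 0.12). With distance and totals fitted together they were -0.10 (-0.26 to 0.06) and -0.018 (-0.15 to 0.11). Without ESC replicate 2 or without ECTO replicate 2, both intervals included 0, and that of the CRK to PITPNA island did so without ECTO replicate 1 also. No block thus changed between the cell types under every expectation.

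The contact of the CRK to PITPNA island was asymmetric. At 200 to 370 kb it was measured toward the BHLHA9 island (114 window pairs) and toward higher coordinates (150 window pairs), and in both directions the pairs span a stretch without values. Toward the BHLHA9 island the ratio of read pairs to the same-distance expectation was 2.01 and 2.05 in ESC and 2.23 and 2.01 in ECTO. Toward higher coordinates it was 0.89 and 0.86 in ESC and 0.77 and 0.63 in ECTO. The first was 2.26 times the second in ESC replicate 1 (interval 1.93 to 2.64), 2.39 times in ESC replicate 2 (2.04 to 2.80), 2.87 times in ECTO replicate 1 (2.32 to 3.57) and 3.20 times in ECTO replicate 2 (2.55 to 4.03). An exact two-sided binomial test on the read pairs of each library gave p = 4e-27, 9.7e-30, 2.5e-25 and 1.8e-27 in the same order. The test treats each read pair as independent, so these p-values cover counting error in single libraries and no variation between regions. They do not apply to the cell types. The test was not among the planned results, and 1 of its sides comes from a block already at about 2 times the mean. A low p thus carries little weight. The 114 pairs are part of the block between the islands, whose excess is given above. The p-values are thus no further support for that excess. With distance and totals fitted together the ratios of both directions were 1.91, 2.03, 2.58 and 2.98, and against distance alone they were 2.07, 2.22, 2.72 and 3.01.

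**Figure D3:**
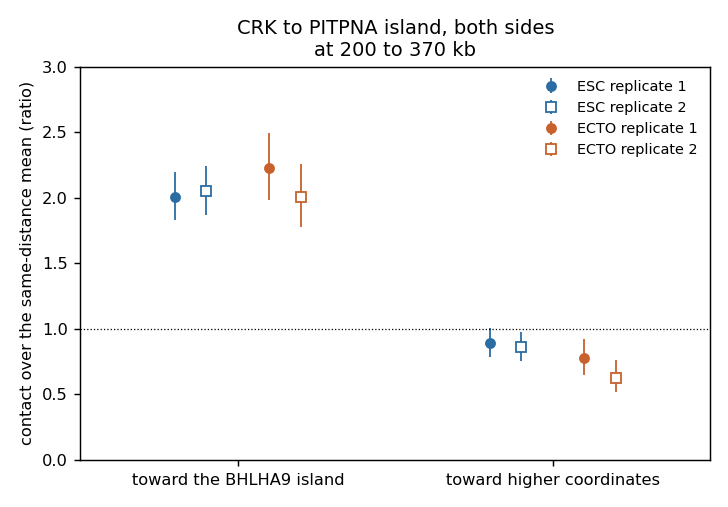
Contact of the CRK to PITPNA island over the same-distance mean at 200 to 370 kb (ratio, linear axis from 0), toward the BHLHA9 island and toward higher coordinates, for each library with its 95% counting interval. Toward the BHLHA9 island the 4 libraries lie between 2.01 and 2.23, and toward higher coordinates between 0.63 and 0.89.

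Farther along the matrix, the islands were set against stretches of 100 kb. The CRK to PITPNA island was at 0.87 ± 0.05 in ESC and 0.68 ± 0.07 in ECTO toward chr17:1763501-1863500, and at 0.68 ± 0.02 and 0.72 ± 0.16 toward chr17:1863501-1963500. It was highest toward chr17:2263501-2363500, at 1.40 ± 0.02 in ESC and 1.48 ± 0.20 in ECTO, with 76, 78, 41 and 52 read pairs over 120 window pairs. The BHLHA9 island stood at 1.42 ± 0.04 in ESC and 1.31 ± 0.10 in ECTO toward the same stretch, with 34, 32, 29 and 25 read pairs over 100 window pairs. In ECTO it was higher toward chr17:1963501-2063500 (1.46 ± 0.02, against 1.13 ± 0.01 in ESC), toward chr17:2163501-2263500 (1.44 ± 0.03, against 1.09 ± 0.01) and toward chr17:2463501-2563500 (1.38 ± 0.13, against 1.16 ± 0.07). Other stretches went the other way. The BHLHA9 island was lower in ECTO toward chr17:1863501-1963500 (0.98 ± 0.14, against 1.23 ± 0.09 in ESC) and toward chr17:2363501-2463500 (0.78 ± 0.49, against 0.97 ± 0.02). Over the 1240 pairs of its windows with windows above chr17:1763501 its ratio was 1.12 ± 0.01 in ESC and 1.18 ± 0.03 in ECTO. The ratios toward the single stretches rest on few read pairs, and the stretches were picked from these values, so no test is given.

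Each of the 22 windows contacted the other island above the same-distance mean in all 4 libraries. The 88 values ran from 1.24 to 3.51, and 77 of their counting intervals lay above 1. With distance and window totals fitted together all 88 values were above 1 also, but against distance alone 82 were, and 17 of the 22 windows were above 1 in all libraries. The order of the windows depended on the expectation as well. In the BHLHA9 island the TRARG1 window had the highest mean in ESC and the BHLHA9 window in ECTO. Against distance alone the TRARG1 window stood at 1.40 ± 0.15 in ESC and 1.66 ± 0.02 in ECTO, and window 7 was highest in ESC (2.24 ± 0.77) and the BHLHA9 window in ECTO (2.52 ± 0.63). The TRARG1 window held 62, 52, 34 and 34 read pairs with the other island, at ratios of 3.09 and 2.35 in ESC and 2.94 and 2.49 in ECTO. The BHLHA9 window held 70, 67, 58 and 41 read pairs, at 2.24 and 2.54 in ESC and 3.25 and 2.40 in ECTO. The ABR window, 50 kb from the TRARG1 window, was lower, with 29, 36, 19 and 21 read pairs and ratios of 1.27 and 1.74 in ESC and 1.59 and 1.93 in ECTO. In both cell types the lowest library of the TRARG1 and BHLHA9 windows lay above the highest library of the ABR window, as it did with the other 2 expectations. The TRARG1 and BHLHA9 windows did not differ beyond their spread, and neither did the BHLHA9 window and window 7 next to it in ESC (2.34 ± 0.64).

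In the CRK to PITPNA island the INPP5K window had the highest mean in ESC, and had it also against distance alone (2.66 ± 0.05) and with distance and totals fitted together (1.93 ± 0.12, within the spread of the PITPNA window at 1.89 ± 0.23). It holds the starts of INPP5K and of PITPNA-AS1, an antisense transcript of PITPNA that starts between both genes. It held 73 and 75 read pairs with the BHLHA9 island in ESC and 37 and 27 in ECTO, at ratios of 2.90, 3.00, 2.92 and 2.18. The MYO1C window came next in ESC at 2.33 ± 0.12, with 70 and 71 read pairs, and both of its libraries lay below both of the INPP5K window. It stood at 1.78 ± 0.19 in ECTO, with 21 and 24 read pairs. Its place in ESC held against distance alone (2.21 ± 0.05). With distance and totals fitted together the MYO1C window came only at rank 7 of its island in ESC (1.62 ± 0.04). In ECTO the highest was window 16, chr17:1503501-1513500 inside INPP5K, at 3.06 ± 0.19 with 43 and 46 read pairs, and it was at 2.26 ± 0.30 in ESC. With distance and totals fitted together window 22 was higher in ECTO (2.43 ± 0.73, against 2.25 ± 0.03 for window 16). The next windows of that order in ECTO, among them the INPP5K window at 2.55 ± 0.53, were within the spread of it. The PITPNA window stood at 2.15 ± 0.55 in ESC and 1.68 ± 0.62 in ECTO. The CRK window was lowest in ESC at 1.43 ± 0.05, with 43 and 43 read pairs (window 13 was lowest against distance alone), and stood at 1.70 ± 0.62 in ECTO with 36 and 21.

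**Figure D4:**
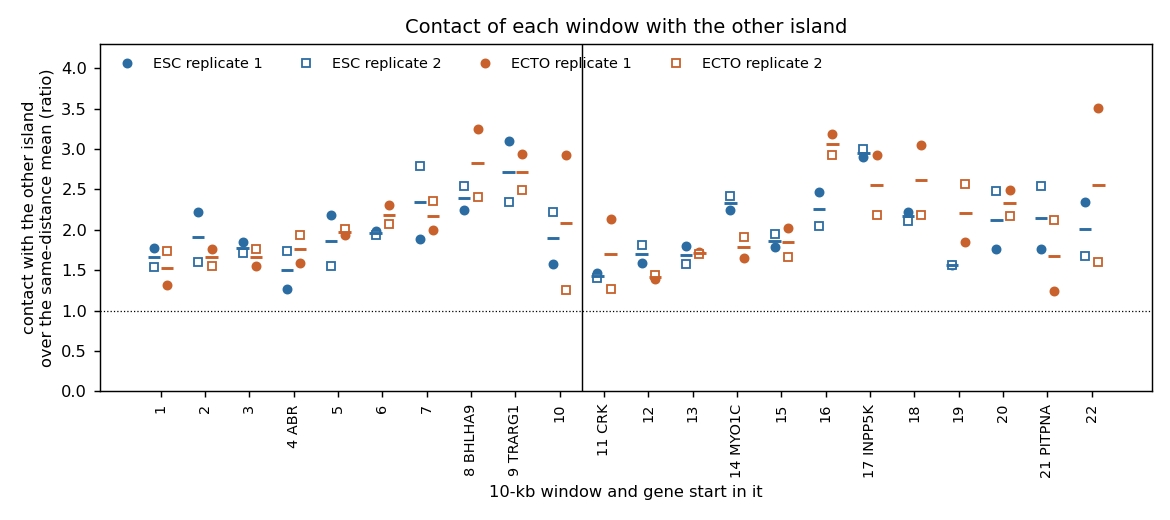
Contact of each of the 22 windows with the other island over the same-distance mean (ratio, linear axis from 0). Points are libraries, short bars the mean of 2 libraries, and the vertical line parts the islands. All 88 points lie above 1 with this expectation, and the BHLHA9, TRARG1 and INPP5K windows and window 16 are among the highest.

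Pairs of gene-start windows across the gap rest on small numbers. TRARG1 and INPP5K, 240 kb apart, shared 9 and 9 read pairs in ESC and 4 and 4 in ECTO, at ratios of 4.46 and 4.09 in ESC and 3.87 and 3.44 in ECTO. BHLHA9 and INPP5K shared 7, 8, 5 and 2 read pairs, with a mean ratio of 2.69 ± 0.55 in ESC and 2.28 ± 1.15 in ECTO. BHLHA9 and MYO1C shared 8, 6, 5 and 4 read pairs, at 1.96 ± 0.06 in ESC and 2.96 ± 0.35 in ECTO. BHLHA9 and CRK shared 6, 9, 4 and 4 read pairs, at 2.08 ± 0.64 in ESC and 1.99 ± 0.07 in ECTO. TRARG1 and CRK shared 4, 4, 5 and 3, and TRARG1 and MYO1C shared 7, 4, 1 and 5. The PITPNA window shared 3, 5, 3 and 2 read pairs with BHLHA9, at 2.87 ± 1.40 in ESC and 2.61 ± 0.97 in ECTO, and 2, 1, 2 and 1 with TRARG1. At this depth the order of these 8 pairs was not resolved.

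Single window pairs were tested in each library with an exact one-sided Poisson test against the same-distance expectation, adjusted by Benjamini-Hochberg over all 10733 window pairs at least 20 kb apart. A pair was called in a cell type where the adjusted p was under 0.05 in both libraries. In ESC 14 of the 10733 pairs were called (0.13%), and 1 of them lay among the island pairs. In ECTO 0 of 10733 were called (0%), with fewer read pairs. At an unadjusted p under 0.05 in both libraries, 13 of the 120 pairs between the islands (10.8%) passed in ESC, against 2.36% of all window pairs at the same distances. In ECTO 7 of 120 (5.83%) passed, against 1.07%. Inside the CRK to PITPNA island 6 of 55 pairs (10.9%) passed in ESC and 1 of 55 (1.82%) in ECTO. Inside the BHLHA9 island 2 of 36 (5.56%) passed in ESC and 0 of 36 in ECTO. The share of all window pairs at these shorter distances is not given here.

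The called pair joined window 7, chr17:1253501-1263500, just below BHLHA9, to the INPP5K window, chr17:1513501-1523500, at 260 kb. It held 15 and 19 read pairs in ESC, where 3.39 and 3.58 were expected, and 3 and 3 in ECTO, where 1.53 and 1.57 were expected. The ratios were 4.42 (2.48 to 7.30) and 5.31 (3.20 to 8.30) in ESC, with exact Poisson tests at adjusted p = 0.00262 and 2.4e-05. In ECTO they were 1.96 (0.40 to 5.73) and 1.91 (0.39 to 5.57). The pair was picked because both ESC libraries were high, so its difference from ECTO is a description and no test. In the fit over all pairs limma gave a change of -1.14 (SE 0.36) at an adjusted p of 0.798. The pair was not called with distance and window totals fitted together, where the adjusted p was 0.126 and 0.059 in the ESC libraries.

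The difference between the cell types at this pair depended on where the windows were placed. With both windows moved together by -4 to 5 kb the ESC ratio ran from 2.91 to 5.10, and with all windows moved by 5 kb no island pair was called in ESC. The ECTO ratio ran from 1.93, at the unmoved position, to 4.60, at a shift of 5 kb, where ECTO held 9 and 5 read pairs against 8 and 7 in ESC. ECTO was above ESC at shifts of -4, 4 and 5 kb.

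**Figure D5:**
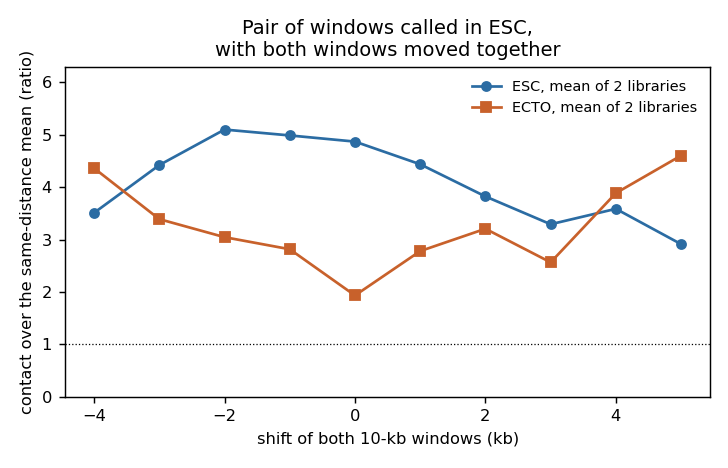
Contact over the same-distance mean (ratio, linear axis from 0) of the pair of windows called in ESC, against the shift in kb of both 10-kb windows, as the mean of 2 libraries per cell type. Neighbouring points share most of their reads. ESC stays between 2.91 and 5.10, and ECTO is lowest at the unmoved position (1.93) and reaches 4.60 at a shift of 5 kb.

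The pairs with the highest mean ratio over the 4 libraries were then taken for each block, by rank and with no test. Between the islands all 3 of them held the TRARG1 window. With window 18, chr17:1523501-1533500 inside PITPNA, it shared 4, 9, 6 and 4 read pairs, at a mean ratio of 4.36 ± 2.12 in ESC and 5.53 ± 2.10 in ECTO. With window 16 it shared 8, 3, 6 and 5 read pairs, at 3.46 ± 2.41 and 4.82 ± 1.12. With window 22, which holds the end of the amino acid transporter gene SLC43A2, it shared 5, 2, 4 and 1 read pairs, at 3.34 ± 2.18 and 4.82 ± 4.91. This order rests on the same-distance mean of the balanced values. Against distance alone the 3 pairs stood at 2.18, 1.56 and 1.37 in ESC and at 3.18, 3.42 and 2.05 in ECTO, while window 7 and the INPP5K window stood at 5.90 in ESC and 1.94 in ECTO. The lowest pairs between the islands joined windows 10 and 22 (0, 0, 1 and 0 read pairs) and windows 1 and 11 (4, 3, 0 and 0 read pairs). A count of 0 allows a ratio of up to 2.40 and 2.70 for the first pair in ESC and up to 2.32 and 2.03 for the second in ECTO, so these pairs were not shown to be below the mean.

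Inside the CRK to PITPNA island all 3 of the highest pairs held the INPP5K window, the same window that was highest toward the BHLHA9 island in ESC. With the MYO1C window, 30 kb away, it shared 39 and 44 read pairs in ESC and 7 and 15 in ECTO, at ratios of 1.63, 1.83, 0.94 and 2.11. With the CRK window it shared 23, 22, 6 and 9 read pairs, at 1.84 ± 0.23 in ESC and 1.61 ± 0.53 in ECTO. With window 12 it shared 18, 26, 8 and 5, at 1.93 ± 0.42 and 1.37 ± 0.42. This order rests on the same-distance mean of the balanced values. With distance and totals fitted together the INPP5K and MYO1C windows stood at 1.07 and 1.12 in ESC and 0.80 and 1.63 in ECTO. Against distance alone these 2 windows stood at 2.08 and 2.31 in ESC and 0.80 and 1.65 in ECTO. The lowest pairs joined the CRK window to the PITPNA window (6, 3, 0 and 1 read pairs) and to window 22 (0, 3, 2 and 2).

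Inside the BHLHA9 island the highest pairs lay at 20 to 30 kb and left out the BHLHA9 and TRARG1 windows. Windows 5 and 7 shared 39, 43, 19 and 20 read pairs, at 1.71 ± 0.008 in ESC and 1.45 ± 0.03 in ECTO. The ABR window and window 6 shared 25, 26, 16 and 7, at 1.63 ± 0.14 and 1.11 ± 0.56. Windows 3 and 6 shared 19, 17, 12 and 9, at 1.42 ± 0.25 and 1.34 ± 0.24. This order also rests on the balanced values. Against distance alone the ABR window and window 6 stood at 0.91 and 0.98 in ESC and 1.22 and 0.52 in ECTO. Windows 5 and 7 then stood at 1.43 and 1.62 in ESC and 1.45 and 1.49 in ECTO. With distance and totals fitted together windows 5 and 7 stood at 1.21 and 1.04 in ESC and 0.96 and 0.96 in ECTO. The lowest pairs joined window 10 to window 3 (2, 5, 1 and 4 read pairs) and to the ABR window (2, 2, 5 and 2).

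For changes of single pairs between ECTO and ESC, limma was fitted on log2(value + 1) to the 4525 window pairs whose mean value was above the median, and no pair was called at an adjusted p under 0.05 (0 of 4525, 0%). Of the 210 island pairs tested, 0 were called, and limma with voom weights on the read pairs also called 0. At an unadjusted p under 0.05, 13 of the 210 passed (6.19%), of which 10 were lower in ECTO, against 231 of all 4525 (5.1%). The share of the island pairs was thus near that of all pairs. The lowest p among the island pairs belonged to window 10 and the PITPNA window, with 2 and 2 read pairs in ESC and 0 and 0 in ECTO, where a count of 0 allows a ratio of up to 3.35 and 2.90. Windows 1 and 6 came second, with 13 and 16 read pairs in ESC and 3 and 5 in ECTO, and a log2 change of -1.12 (SE 0.35) at an adjusted limma p of 0.798. The called pair followed.

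The windows were also described by their totals in read pairs. The median window of the BHLHA9 island held 404.5 and 376 read pairs in ESC and 272.5 and 255.5 in ECTO, and that of the CRK to PITPNA island held 444, 460.5, 296 and 295. The median window outside the islands held 692 ± 4.95 in ESC and 388 ± 7.07 in ECTO. Read pairs with both ends in 1 window made up 27.8% ± 0.14 of the BHLHA9 island's total in ESC and 38.5% ± 0.85 in ECTO, 25.8% ± 0.20 and 37.3% ± 0.08 for the CRK to PITPNA island, and 16.8% ± 0.20 and 27.1% ± 0.76 outside the islands. This share was higher in ECTO in all 3 sets. A window total holds only pairs with measured windows, and the islands had fewer of these within 100 kb, as given above. A read pair that joins different windows counts in the total of each. The part of this in the differences between the islands and the other windows was not tested. The median GC content was 52.4% for windows of the BHLHA9 island and 53.4% for those of the CRK to PITPNA island, against 48.5% for the other windows. The core consensus of CTCF, a protein that anchors many loops, matched on either strand in 0 of the 22 island windows and in 6 of the other 126, which says nothing of sites with other letters.

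The read pairs of each window with windows at least 20 kb away were summed over the windows of an island. A read pair inside the island thus counted at both of its windows. Of this sum for the BHLHA9 island, 27.1% and 26.3% reached the CRK to PITPNA island in ESC and 28.8% and 26.7% in ECTO. Seen from the CRK to PITPNA island, 17.3% and 17.4% reached the BHLHA9 island in ESC and 21.8% and 19.4% in ECTO. Both ECTO libraries were above both ESC libraries for the second share, and the cell types overlapped for the first. Contacts inside the same island, counted at both windows, made up 48.8% ± 0.56 of the sum in ESC and 43.8% ± 0.58 in ECTO for the BHLHA9 island. For the CRK to PITPNA island they made up 52.0% ± 0.14 and 46.8% ± 1.31. In plain read pairs the BHLHA9 island held fewer inside it (446, 468, 247 and 240) than to the other island (499, 501, 322 and 295). The CRK to PITPNA island held more inside it (748, 750, 339 and 362).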

How the data were processed

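Hi-C was analysed in 4 libraries, 2 of H9 hESCs and 2 of neuroectoderm. Per the submitters' processing notes and the methods, the authors aligned reads to hg38 with Bowtie2 and built contact matrices with HOMER (versions not given in the sources used here). The deposited values are a contact signal, balanced by the authors to 1 total per bin within each library and written with 4 digits.

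Read pairs were recovered by fitting whole multiples with a factor per bin. At least 99.99429% of the non-zero values lay no more than 0.1 from a whole number. Correlation of neighbouring bins levelled off at 10 kb, which set the window width. The placement, 4500 bp left of the bin name, is uncertain by 500 bp. Windows were taken every 10 bins, and pairs at least 20 kb apart were used (10733 pairs). The expectation was each library's mean deposited value per distance. Calls used exact Poisson tests, and cell types were compared with limma 3.58.1 (R 4.3.3, lmFit, eBayes with trend, pseudocount 1, threshold 0.05), with Python 3.11.15, numpy 2.4.6 and scipy 1.17.1 for the rest. The steps were tested on simulated data. A count of 0 allows up to 3 read pairs.

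Named were windows with gene starts, called pairs, gene-start pairs across the islands and the 3 island pairs with the lowest limma p. Also named were the 3 highest and 2 lowest pairs per block, with at least 3 expected read pairs summed over the 4 libraries. All island pairs met this minimum. The islands and these lists were chosen with earlier results of these data known. Alternatives covered the expectation, edge windows, window placement, minimum distance, pseudocount, filter, scaling, voom, a replicate block and single libraries. The expectation with distance and window totals fitted together, and shifts of the windows other than 5 kb, were added after seeing the data. The test of both sides of the CRK to PITPNA island was not among the planned results. Contacts outside this stretch of chromosome 17 were not analysed here. Coordinates are 1-based on hg38.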

Additional observations from a re-analysis of the deposited data

Results flagged for a closer look

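The window chr17:1296501-1306500, at the edge of the stretch that holds YWHAE and outside both islands, held 10 and 10 read pairs in the ECTO libraries (20 in all), and the same bin was listed at 0 in both ESC libraries. It entered no comparison.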

How the results depend on the processing

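Between the islands the ratio to the same-distance mean, 2.01 in ESC and 2.09 in ECTO, remained above 1 under all alternatives run. In ESC it became 1.44 with an expectation from distance alone, 1.58 with distance and window totals fitted together, 2.16 with island pairs left out of the expectation, 2.05 without windows next to empty stretches and 1.94 with windows moved by 5 kb. In ECTO it became 1.74 with distance alone and 1.74 with both fitted together. Over 10 placements of the windows it ran from 1.93 to 2.01 in ESC and from 1.99 to 2.09 in ECTO. Inside the BHLHA9 island the ratio moved from 1.18 in ESC and 1.05 in ECTO to 0.75 and 0.85 with distance alone, 0.82 and 0.77 with both fitted together, and 1.11 and 0.94 for pairs at least 30 kb apart. Inside the CRK to PITPNA island it moved from 1.13 in ESC and 1.05 in ECTO to 0.88 and 0.87 with distance alone, 0.98 and 0.97 with both fitted together, and 1.18 and 1.09 without windows next to empty stretches. In ESC alone it moved to 1.15 with island pairs left out, 1.17 with windows moved by 5 kb and 1.11 at 30 kb or more. The cause of these moves was not tested.

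The log2 change from ESC to ECTO inside the BHLHA9 island, -0.17, turned to 0.17 with distance alone and was -0.10, with an interval that included 0, with both fitted together. Inside the CRK to PITPNA island it was -0.0094 and -0.018 under these settings, and between the islands 0.28 with distance alone. With single libraries left out the changes ran from -0.21 to -0.12 inside the BHLHA9 island, from -0.17 to -0.13 inside the CRK to PITPNA island and from -0.036 (without ECTO replicate 1) to 0.14 (without ECTO replicate 2) between the islands. The share of contacts from the BHLHA9 island to the other island in ESC, summed over windows as above, was 26.7%. It was 27.9% with windows moved by 5 kb and 28.6% without windows next to empty stretches.

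The 1 island pair called in ESC became 24 with both libraries summed, 2 with distance alone, and 0 with p under 1e-10, with windows moved by 5 kb and with both fitted together. In single ESC libraries 3 (without replicate 2) and 7 (without replicate 1) were called. In ECTO the count of 0 became 5 with both libraries summed, and 2 and 0 in single libraries. Over all 10733 window pairs the main setting called 14 in ESC and 0 in ECTO. The number called over all window pairs is not given for the other settings. These island counts thus do not show that calls gathered in the islands.

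The deviations of same-numbered libraries had a correlation of -0.007 over 4525 window pairs. Counting error of single pairs hides a shared deviation, so this value cannot show whether libraries of like number were paired. With a replicate block limma called 1 island pair, the ABR and TRARG1 windows (10, 9, 0 and 5 read pairs, adjusted p = 0.0407), where the fit without the block called 0. The replicate block left the direction of all 3 block changes and the side of their intervals as they were. Single pairs rest on few read pairs, most of all in ECTO, and 0 calls there do not show that contacts were equal.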
